A study of Mus musculus with 6 samples.

Results

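The effect of a depleted gut microbiota on the immune cells of the aged brain was examined in the mice of 72 weeks, as antibiotic-treated against control animals. The cells were those of the 72-week well in the deposited cell table, split by hashtag, an antibody that carries a short DNA barcode and marks the pool a cell came from. They numbered 6526 of the 13052 cells of the study, 3263 in each arm. All mice were female C57BL/6 and no genetic change is named. Controls received vehicle and kept an intact microbiota, and the other arm received antibiotics, whose names, doses and duration are not in the sources used here. Per the labels, 24 brains (6 per group of age and treatment) were made into suspensions singly and then merged into 12 pools, 3 per group. Mice were perfused, brains were digested with a papain-based kit, and a Percoll gradient enriched the immune cells. Cells were read by CITE-seq, in which RNA and antibody tags are counted in the same droplet. How the mice were assigned to pools is not stated, so each pool is a mixture of animals and a p-value here measures the spread between pools.

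Control pools carried hashtags 1 to 3 and antibiotic pools hashtags 4 to 6, so a hashtag and its arm cannot be told apart. The 6 barcodes are shown because they alone assign a cell to an arm. They are 15 bases long and come from the deposited list of tags.
control 1: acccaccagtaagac
control 2: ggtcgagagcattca
control 3: cttgccgcatgtcat
antibiotic 4: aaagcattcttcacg
antibiotic 5: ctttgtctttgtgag
antibiotic 6: tatgctgccacggta
The pools are named by these numbers throughout, and values are listed in that order. They held 887, 1048 and 1328 control cells and 924, 1386 and 953 antibiotic cells. Raw RNA totals ran from 6048877 to 10792931 UMIs per pool and antibody totals from 428724 to 1078139 tags. The median cell held 7075 raw UMIs in the control arm and 7003 in the antibiotic arm. Cells below 2000 UMIs made up 12.7% of the control and 16.6% of the antibiotic arm, from 10.6% to 20.1% of single pools. A total of 59 cell barcodes of the 72-week well also occurred in the 12-week well, and leaving those cells out gave 281 called microglia genes, of which 278 were among the 283 given below.

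Microglia are the resident macrophages of the brain tissue, and border-associated macrophages (the authors' BAM) live in the meninges, the choroid plexus and the spaces around vessels. Products of gut bacteria, such as short-chain fatty acids, are known to act on microglia, whose maturation is altered in germ-free animals. Glucocorticoids, hormones of the adrenal gland, act through a nuclear receptor that raises genes such as Fkbp5, Tsc22d3 and Per1. The endoplasmic reticulum (ER) folds secreted proteins with chaperones such as Hspa5, and stress of that compartment raises these chaperones through the factors Xbp1 and Atf6.

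The authors' cell types were checked against defining markers. Microglia carried 7 microglial markers (P2ry12, Tmem119, Sall1, Cx3cr1, P2ry13, Sparc and Siglech) at a summed 54.1 to 63.1 per cell in each pool, against a summed 0.0492 to 0.105 for 7 BAM markers. In BAM the BAM markers summed to 21.9 to 26.0 per cell and the microglial markers to 8.48 to 28.2. In control 1 the microglial markers (28.2) exceeded the BAM markers (21.9), so BAM were mixed by this check. In CD8+ cells 6 CD8+ markers summed to 24.0 to 26.9, in CD4+ cells 6 CD4+ markers to 15.7 to 20.2, and in Ly6C+Ly6G+ cells 7 neutrophil markers to 834 to 2663. The CD8+ and CD4+ lists share Cd3e, Cd3d and Trac. The CD8+ markers summed to 9.87 to 14.8 in CD4+ cells. The CD4+ markers summed to 14.75 to 17.2 in CD8+ cells, so their sum does not tell CD4+ from CD8+ cells. Other types were mixed by this check too. In Ly6CHigh cells the neutrophil markers (80.5, 201, 172, 248, 28.0 and 93.9 by pool) exceeded the 6 Ly6CHigh markers (38.6, 73.1, 83.9, 87.5, 68.8 and 40.1) in each pool but antibiotic 5. In B cells the neutrophil markers reached 85.2 in control 1, 70.5 in control 3 and 167 in antibiotic 4, above the B cell markers there (29.6, 60.4 and 29.0). In Ly6CLow cells the 6 own markers summed to 7.21 to 11.8, while neutrophil markers reached 48.0 in control 3 and 93.1 in antibiotic 4, erythroid markers 41.5 in control 2 and 56.3 in antibiotic 6, and B cell markers 18.9 in control 3. These types are therefore called by the authors' names only, and the part of RNA or cells of other types in their values was not tested. The single NKCells cell had 3 of 6 natural killer markers at 0 and is not described further.

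No difference in the share of a cell type passed the test. Microglia made up 75.5%, 62.3% and 68.0% of the control pools and 68.2%, 74.2% and 49.8% of the antibiotic pools. The groups overlapped, and antibiotic 6 was the lowest. CD8+ cells, the cytotoxic T lymphocytes, made up 6.31%, 8.87% and 9.11% of control and 13.2%, 7.94% and 12.6% of antibiotic pools. Antibiotic 4 and 6 lay above all controls and antibiotic 5 did not, for means of 8.10% ± 1.55 and 11.2% ± 2.88 (SD, n = 3). The log2 difference was 0.47 (SE 0.443), with an exact permutation p of 0.3 (two-sided).

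Innate lymphoid cells (ILCs) took 1.24%, 8.30% and 2.33% of control and 1.73%, 0.361% and 2.62% of antibiotic pools, so control 2 stood apart. In that pool the ILCs held CD8+ markers at a summed 13.7 (0.0909 to 2.40 in the other pools) and CD4+ markers at 9.71, above the 8.38 of their 6 own markers, the lowest of the pools. The 6 natural killer markers also exceeded the ILCs' own markers in control 2, antibiotic 4 (32.5 against 22.75) and antibiotic 6 (34.84 against 14.12). In control 1, control 3 and antibiotic 5 the natural killer markers lay below the own markers. The part of T cells in the share of control 2 was not tested, nor that of natural killer cells in any pool. Ly6CHigh cells took 3.61%, 2.29% and 2.26% of control and 2.60%, 2.74% and 10.4% of antibiotic pools. B cells took 3.38%, 2.77% and 3.92% of control and 2.60%, 2.45% and 7.77% of antibiotic pools. In the Ly6CHigh cells of antibiotic 6, 73.7% held under 2000 raw UMIs, as did 78.1% of those of control 1, against 20.8% to 47.4% in the other pools, and the part of depth in that share was not tested. Antibiotic 6 was the highest pool for both types, and without it the log2 difference was -0.02 in place of 0.95 for Ly6CHigh and -0.41 in place of 0.34 for B cells. Ly6CLow cells ranged from 3.95% to 6.87% of control and from 4.98% to 5.25% of antibiotic pools. BAM ranged from 3.82% to 4.67% of control and from 3.17% to 5.25% of antibiotic pools. CD4+ cells, the helper T lymphocytes, ranged from 1.01% to 2.86% and from 1.62% to 3.61%, and Ly6C+Ly6G+ cells, which carry neutrophil genes such as S100a8 and Ngp, from 0.789% to 1.91% and from 0.577% to 4.30%. The pools of the arms overlapped in every type.

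edgeR called 0 of 10 types (0.0%) and 0 at an unadjusted p under 0.05, the lowest adjusted p being 0.727. DESeq2 also called 0, with 1 at an unadjusted p under 0.05. The SE of the log2 difference was 0.139 for microglia, 0.653 for Ly6CHigh and 0.716 for ILCs, so a change of the size seen in ILCs (-1.35) was not detectable with 3 pools a side. The arms were deposited with equal cell numbers by a selection not described in the sources used here, so only shares within these cells were compared.

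**Figure D1:**
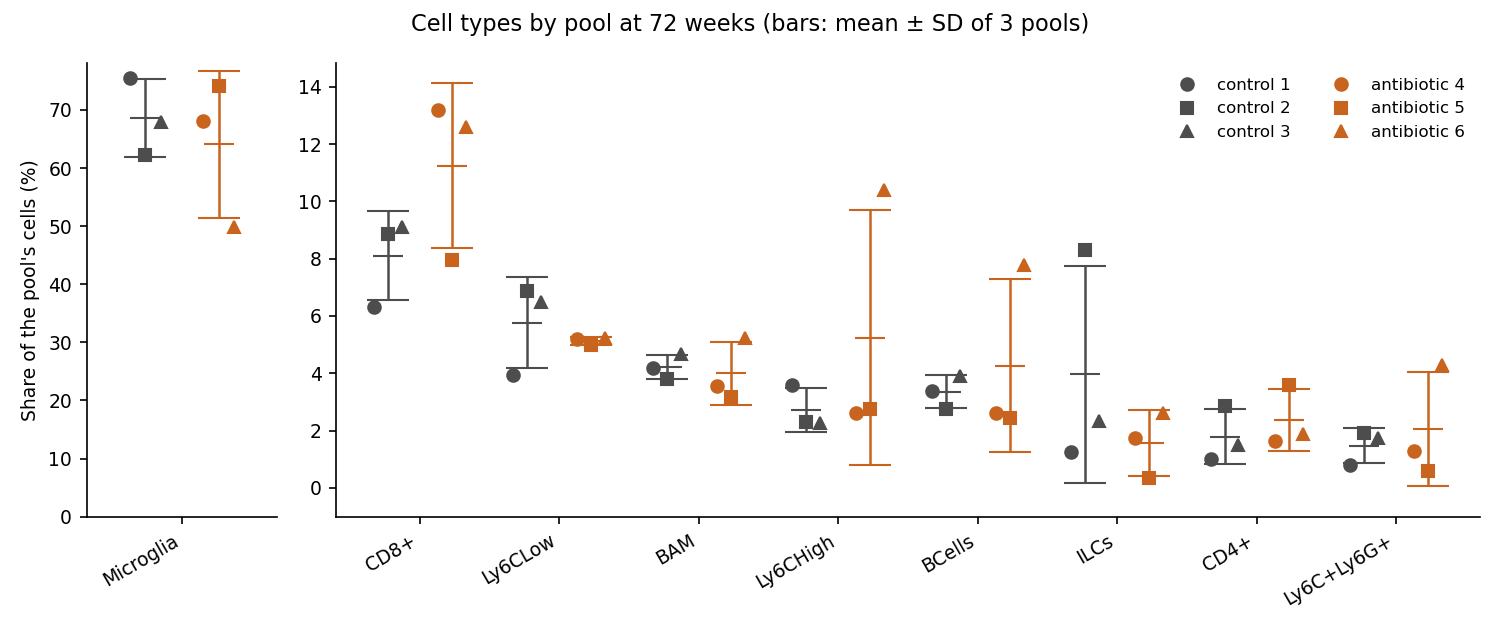
Share of each authors' cell type among the cells of a pool, in percent, at 72 weeks (y axes, microglia on their own scale, both linear). Each point is a pool and bars give the mean ± SD of 3 pools. Antibiotic 6 lies apart with 49.8% microglia and 10.4% Ly6CHigh cells, and control 2 with 8.30% ILCs.

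In microglia the antibiotic arm had more RNA of genes raised by glucocorticoids (Klf9, Fkbp5, Mt1) and of genes of the circadian clock (Dbp, Per3). It also had more RNA of the cold-inducible RNA-binding protein gene Cirbp. It had less RNA of ER chaperones (Hspa5, Calr, Manf), heat shock chaperones (Dnaja1, Hsph1), glycolytic enzymes (Hk2, Pfkl) and the endotoxin receptor chain Tlr4 with its partner Ly96. limma called 283 of 8759 genes (3.23%) at an adjusted p under 0.05. Of all genes tested, 1.59% were called higher and 1.64% lower, and 1610 genes had an unadjusted p under 0.05. The count was 109 without antibiotic 5, 117 without control 2, 146 without control 1 and 181 without control 3. Most changes were small. The median size was 0.39 on the log2 scale among called genes, 55 reached 0.5 and 5 reached 1. Control and antibiotic pools did not overlap in 283 of the 283 called genes and in 22.1% of all genes. Expression is the authors' corrected UMI value, averaged over the microglia of a pool, and a log2 change is that of this mean plus 0.05, which understates the change of low genes.

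**Figure D2:**
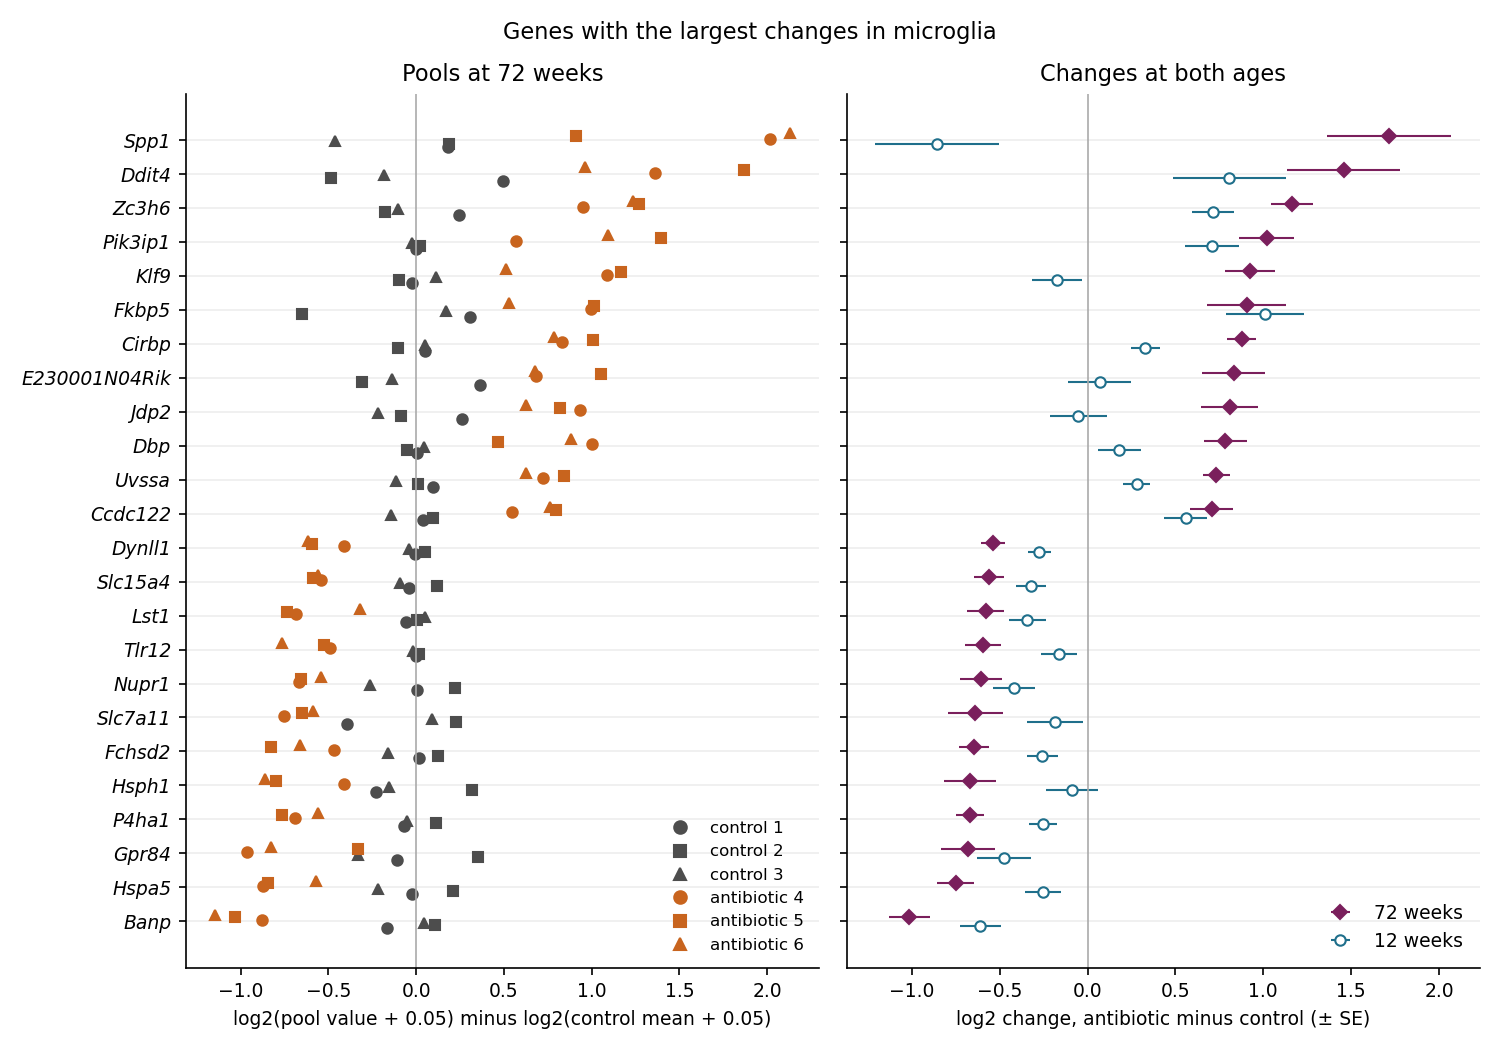
The 12 genes called higher and the 12 called lower with the largest changes in microglia. Left, each pool at 72 weeks as log2(value + 0.05) minus that of the control mean. Right, the log2 change (antibiotic minus control, ± SE) at 72 weeks (diamonds) and at 12 weeks (open circles), where Klf9 stood at 0.92 and -0.17 and Fkbp5 at 0.91 and 1.01.

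The gene with the largest change, Spp1, needs its cells shown first. Spp1 encodes osteopontin, a secreted protein of phagocytic and disease-associated microglia. Pool means of Spp1 were 0.128, 0.129 and 0.0642 in control and 0.586, 0.245 and 0.638 in antibiotic pools (log2 change 1.72, limma adjusted p 0.0109). In antibiotic 4 a single cell held a value of 319, in antibiotic 5 the highest cell held 140, and in antibiotic 6 it held 265, against 45, 31 and 7 in control 1 to 3. Without the highest cell of each pool the means of Spp1 were 0.0613, 0.0813 and 0.0565 in control and 0.0795, 0.109 and 0.0802 in antibiotic pools. The arms then overlapped, and the change was 0.26 with a limma adjusted p of 0.298. The called rise of Spp1 thus rested on 1 cell per pool. Over all genes, the same removal gave 302 called genes, of which 275 were among the 283.

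The gene lists, here and below, were chosen with earlier results of these data known. Counts and medians of a list therefore describe these data and are not independent support. Of 20 genes listed as glucocorticoid targets, 19 were tested, and 8 were called higher and 0 lower. Of the 19, 12 had a change above 0 and 7 below, down to -0.42. The list's median log2 change was 0.33 against -0.01 for all genes tested. Klf9, a zinc-finger transcription factor, averaged 0.0716, 0.0658 and 0.0842 in control and 0.213, 0.229 and 0.126 in antibiotic pools. Every antibiotic pool lay above every control pool, with antibiotic 6 the lowest of them (log2 change 0.92, SE 0.142, limma adjusted p 0.00175). Ddit4, a brake on the growth kinase mTORC1, averaged 0.372, 0.164 and 0.214 in control and 0.721, 1.04 and 0.535 in antibiotic pools. Its pools varied more within each arm, and the call (log2 change 1.46, limma adjusted p 0.0173) was lost without control 2, control 3 or antibiotic 5.

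Fkbp5, a co-chaperone that dampens the glucocorticoid receptor, stood at 0.806, 0.391 and 0.729 in control and 1.33, 1.35 and 0.949 in antibiotic pools. Control 2 was the lowest pool by far, and the call (log2 change 0.91, limma adjusted p 0.0328) was lost without it, without antibiotic 4 or without antibiotic 5. The metallothioneins bind zinc and copper. Mt1 rose from 3.39, 2.96 and 2.99 to 4.11, 5.43 and 4.77 (log2 change 0.60, limma adjusted p 0.00189), and Mt2, much lower, from 0.0970, 0.0613 and 0.0731 to 0.122, 0.200 and 0.145 (0.69, adjusted p 0.00647). Dusp1, a phosphatase that switches off MAP kinases, was the most abundant of the list's called genes, at 17.03, 17.8 and 19.8 in control and 24.1, 24.9 and 24.0 in antibiotic pools. Its pools were tight, and the change of 0.42 (SE 0.0738, limma adjusted p 0.00413) held without each pool in turn, as it did for Klf9, Mt1 and Mt2. Dusp1 was also the one called member of 22 tested immediate early genes, whose median change was 0.03.

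Tsc22d3, which encodes the glucocorticoid-induced leucine zipper GILZ and was chosen after its values were seen, averaged 4.77, 3.71 and 4.58 in control and 6.28, 5.94 and 6.89 in antibiotic pools (log2 change 0.55, limma adjusted p 0.0346). The arms did not overlap, yet the call was lost when any of the 6 pools was left out. Per1, the eighth called gene of the list, belongs to the clock genes as well. Leaving out single pools gave 4 to 8 called members.

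Among 13 tested clock genes 3 were called higher, 0 lower, and 12 had a change above 0, for a median of 0.17. Dbp, a transcription factor at the output of the clock, averaged 0.0642, 0.0597 and 0.0676 in control and 0.178, 0.107 and 0.160 in antibiotic pools (log2 change 0.78, limma adjusted p 0.00189). The control pools were within 0.01 of each other and antibiotic 5 was the lowest of its arm. Per3, a period gene that feeds back on the clock, averaged 0.143, 0.103 and 0.150 in control and 0.283, 0.197 and 0.200 in antibiotic pools (0.60, adjusted p 0.0112). Per1, another period gene, averaged 0.993, 0.779 and 0.838 in control and 1.22, 1.16 and 1.05 in antibiotic pools (0.38, adjusted p 0.0437). Antibiotic 6 lay just above control 1 for Per1, and its call was lost without control 2, control 3, antibiotic 4 or antibiotic 5. The call of Per3 was lost without control 2 or antibiotic 4. Nr1d2, a clock repressor, did not pass (0.36, adjusted p 0.107). The hours at which the arms were collected are not in the sources used here, and their part in these values was not tested.

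Of 27 tested ER chaperones and folding genes, 8 were called lower and 0 higher, and 24 had a change below 0, for a median of -0.14. Hspa5 (BiP), the main chaperone of the ER, fell in each antibiotic pool, with 8.95, 10.5 and 7.81 in control and 4.94, 5.05 and 6.12 in antibiotic pools (log2 change -0.75, SE 0.104, limma adjusted p 0.000731). Calr, the calcium-binding chaperone calreticulin, averaged 4.37, 4.4 and 3.92 in control and 3.10, 3.14 and 3.07 in antibiotic pools, which lay within 0.1 of each other (-0.44, adjusted p 0.00242). Manf, a small ER stress protein that is partly secreted, averaged 1.59, 1.66 and 1.46 in control and 1.12, 1.17 and 1.15 in antibiotic pools (-0.44, adjusted p 0.00175).

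Xbp1, the transcription factor of the unfolded protein response, averaged 1.43, 1.48 and 1.30 in control and 1.03, 1.09 and 1.08 in antibiotic pools (log2 change -0.38, limma adjusted p 0.00242). The arms of these 4 genes did not overlap and their calls held without each pool in turn. The other called members, chosen after their values were seen, were Hyou1 (-0.39), Creld2 (-0.44), Pdia6 (-0.35) and Hsp90b1 (-0.29), with limma adjusted p from 0.0169 to 0.0323. None of these calls held without each pool in turn, and each depended on 3 to 5 of the 6 pools. Over the pools left out the number of called members ran from 4 to 8.

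Promoters of the called chaperones were read for the ER stress element, the sequence that ATF6 and XBP1 bind, spelled CCAAT, 9 bases of any kind, then CCACG, on both strands. The RefSeq promoter table (GRCm38.p6) covers 250 bases before to 50 bases after each start site. The element was in 39 of 32851 windows (0.119%) and in 8 of the 21 windows of the ER list (38.1%). Of the 8 called members 6 had a window and 5 held the element. The stretches around it are shown because these 5 genes carry the same letters and changed in the same direction. Capitals mark the outer bases of the element, and each stretch is read along the gene's own strand.
Hspa5, chr2:34771985-34772083, plus strand: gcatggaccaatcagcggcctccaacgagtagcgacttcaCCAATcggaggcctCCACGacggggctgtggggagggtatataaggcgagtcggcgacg
Calr, chr8:84847035-84847133, minus strand: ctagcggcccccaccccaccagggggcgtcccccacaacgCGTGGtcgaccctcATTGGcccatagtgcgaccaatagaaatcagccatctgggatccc
Hsp90b1, chr10:86705598-86705694, minus strand: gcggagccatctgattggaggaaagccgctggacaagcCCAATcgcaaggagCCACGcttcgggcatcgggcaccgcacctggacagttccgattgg
Pdia6, chr12:17266451-17266549, plus strand: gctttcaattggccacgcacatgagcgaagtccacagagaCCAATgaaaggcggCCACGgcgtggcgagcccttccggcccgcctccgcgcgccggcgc
Creld2, chr15:88819480-88819578, plus strand: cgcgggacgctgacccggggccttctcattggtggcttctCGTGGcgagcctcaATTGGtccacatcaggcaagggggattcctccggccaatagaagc
In Calr and Creld2 the element is on the opposite strand, so its reverse complement is printed. Hsp90b1 held a second copy on the opposite strand. The element was also in the windows of 3 members that were not called, Canx (log2 change -0.13), Dnajc3 (-0.06) and Syvn1 (-0.20). A match is a description of the letters and not evidence that a factor was bound.

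The same reading gave little for the raised lists. A glucocorticoid element (AGAACA, 3 bases of any kind, TGTTC) was in 16 of all windows (0.0487%) and in 1 of the 29 windows of the glucocorticoid list, that of Sgk1, a kinase whose change of -0.17 did not pass. None of the 8 called genes (0) held it in this window. The E-box CACGTG, bound by the clock factors CLOCK and BMAL1, was in 7.15% of all windows and in 6 of the 21 windows of the clock list (28.6%), and of the 3 called clock genes 1 held it, Per1.
Per1, chr11:69098743-69098828, plus strand: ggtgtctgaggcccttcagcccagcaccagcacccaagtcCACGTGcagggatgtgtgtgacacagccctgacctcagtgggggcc
The capitals mark the E-box of Per1, which is shown as the called clock gene with this element.

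Of 19 tested heat shock chaperones, 4 were called lower and 0 higher, and 18 lay below 0, for a median of -0.20. Dnaja1, a partner of HSP70, averaged 1.5, 1.70 and 1.48 in control and 1.29, 1.16 and 1.07 in antibiotic pools (log2 change -0.40, limma adjusted p 0.00413), without overlap. Hspa8, the constitutive HSP70, averaged 7.95, 8.52 and 7.28 in control and 6.10, 5.78 and 6.60 in antibiotic pools (-0.36, adjusted p 0.0276). Hsph1, an exchange factor of HSP70, was low, at 0.0731, 0.130 and 0.0797 in control and 0.0587, 0.0331 and 0.0295 in antibiotic pools (-0.67, adjusted p 0.0169). Chordc1, a co-chaperone of HSP90, fell by 0.39 (adjusted p 0.00904). Dnaja1 kept its call without each pool, Chordc1 lost it without antibiotic 5, Hsph1 without any of 3 pools and Hspa8 without any of 4. The number of called members ran from 1 to 4 over the pools left out.

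Of 20 tested genes of hypoxia and glycolysis, 5 were called lower, 0 higher and 16 lay below 0, for a median of -0.15. P4ha1, the collagen prolyl hydroxylase that is induced by hypoxia, averaged 0.912, 1.04 and 0.920 in control and 0.575, 0.544 and 0.634 in antibiotic pools (log2 change -0.67, limma adjusted p 0.000144). Hk2, the hexokinase that starts glycolysis, averaged 1.61, 1.48 and 1.59 in control and 1.24, 1.17 and 1.23 in antibiotic pools (-0.34, adjusted p 0.00685). Both had arms far apart relative to the spread within them, and both calls held without each pool. Pfkl (-0.35), Aldoa (-0.26) and Ldha (-0.22), enzymes further down the same pathway, passed with limma adjusted p from 0.0249 to 0.0433, and each call depended on 4 or more of the pools. Ldha was chosen after its values were seen.

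Genes of the integrated stress response driven by ATF4 gave 3 called lower and 0 higher of 19, with a median of -0.08. Nupr1, a stress-induced nuclear protein, averaged 0.551, 0.648 and 0.449 in control and 0.327, 0.330 and 0.362 in antibiotic pools (log2 change -0.61, limma adjusted p 0.00829). Ddit3 (CHOP) averaged 1.00, 0.902 and 0.752 in control and 0.684, 0.609 and 0.619 in antibiotic pools (-0.44, adjusted p 0.00876). The nearest pools of the arms were close, and Ddit3 lost its call without control 1 and Nupr1 without control 2. Slc7a11, the cystine transporter, fell by 0.64 (adjusted p 0.0329), a call lost without any of 5 pools.

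Among 15 tested receptors for microbial products and metabolites, 3 were called lower and 0 higher, with a median of -0.02. Ly96 (MD-2), the protein that holds endotoxin for TLR4, averaged 0.319, 0.420 and 0.363 in control and 0.256, 0.237 and 0.269 in antibiotic pools (log2 change -0.45, limma adjusted p 0.00610), and the call held without each pool. Tlr4 averaged 0.290, 0.292 and 0.231 in control and 0.190, 0.167 and 0.202 in antibiotic pools (-0.44, adjusted p 0.0120), a call lost without control 1, control 2 or antibiotic 5. Gpr84, a receptor for medium-chain fatty acids, averaged 2.22, 3.07 and 1.89 in control and 1.2, 1.89 and 1.33 in antibiotic pools. Control 3 and antibiotic 5 were level to 3 digits, so its arms were separated by almost nothing (-0.68, adjusted p 0.0216), and the call was lost without control 2, antibiotic 4 or antibiotic 6. Tlr7, the receptor for single-stranded RNA, had the opposite sign and did not pass (0.25, adjusted p 0.0725). Outside this list, Tlr12, a receptor for profilin of parasites, fell from 0.149, 0.152 and 0.147 to 0.0921, 0.0885 and 0.0674 (-0.59, adjusted p 0.00383), and Slc15a4, a lysosomal transporter that Toll-like receptors of endosomes depend on, from 0.736, 0.827 and 0.708 to 0.505, 0.487 and 0.497 (-0.56, adjusted p 0.00162).

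**Figure D3:**
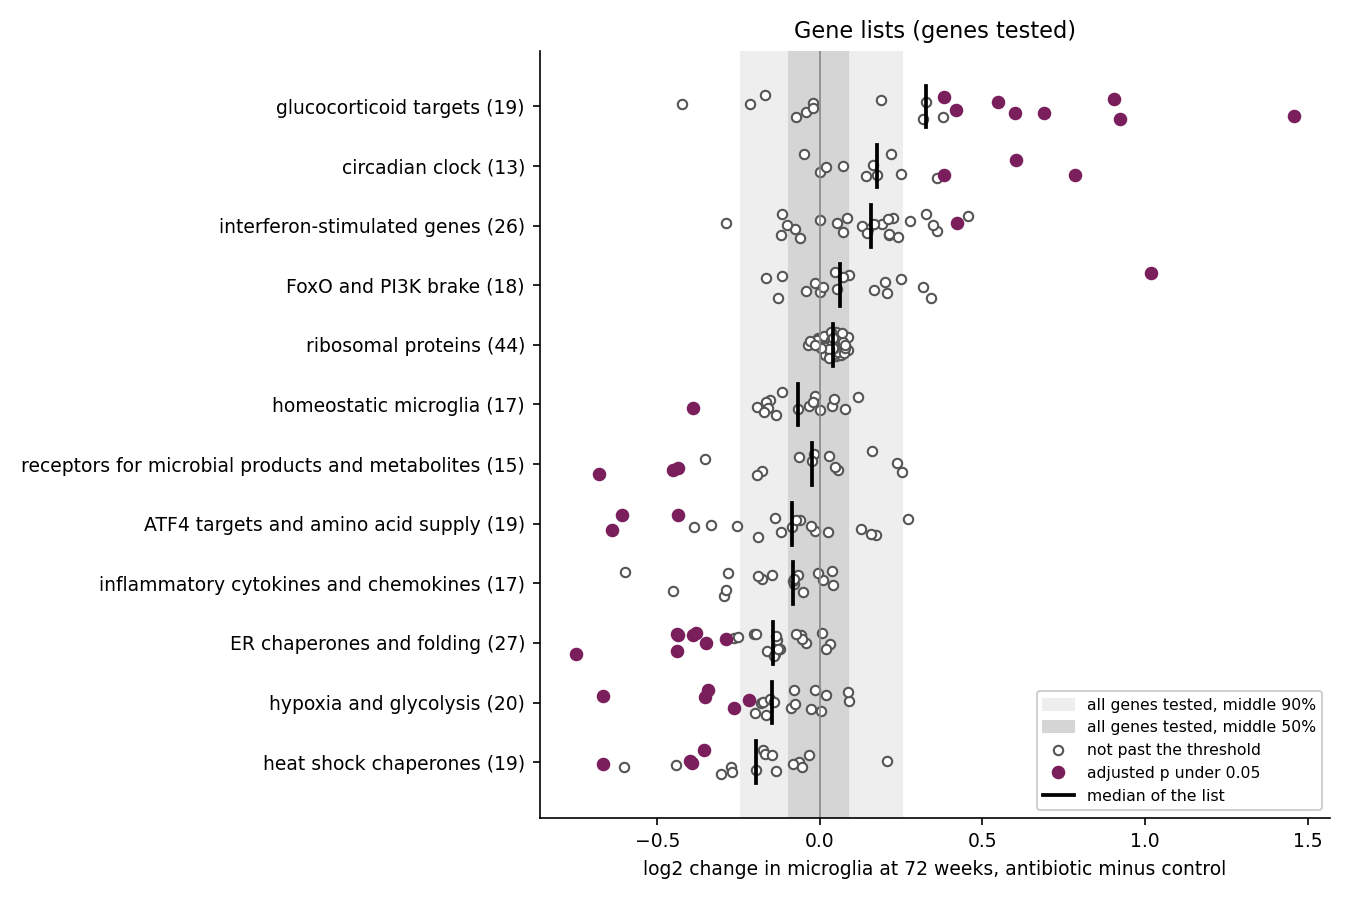
Log2 change in microglia at 72 weeks (x axis) of every tested member of 12 gene lists (rows, number tested in brackets). Filled points passed an adjusted p of 0.05, bars are list medians and bands give the middle of all genes tested. The median was 0.33 for glucocorticoid targets and -0.20 for heat shock chaperones, against -0.01 for all genes.

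Of 17 homeostatic genes of microglia 1 was called, with a median of -0.07, a share near the 3.23% of all genes. Gpr34, a lysophosphatidylserine receptor, averaged 9.90, 9.21 and 9.81 in control and 7.98, 6.26 and 7.91 in antibiotic pools (log2 change -0.39, limma adjusted p 0.0131), a call lost without control 1 or antibiotic 5. P2ry12 (-0.19), P2ry13 (-0.15) and Cx3cr1 (-0.17), receptors of resting microglia, did not pass, with adjusted p from 0.146 to 0.203, although their antibiotic pools lay below their control pools. Of 16 tested genes of disease-associated microglia, 1 was called, and that was Spp1. Apoe, the lipid carrier raised in that state, averaged 13.7, 11.5 and 10.9 in control and 12.7, 20.8 and 15.9 in antibiotic pools, with overlap (0.43, adjusted p 0.0842). Axl, a receptor for dying cells, stood at 0.32 (adjusted p 0.0790) and Cst7, a protease inhibitor, at 0.42 (0.0832). Irf8, a transcription factor of the macrophage lineage, and Bin1, a membrane-bending protein, were chosen after their values were seen. Irf8 averaged 3.81, 4.07 and 3.60 in control and 2.93, 2.88 and 3.26 in antibiotic pools (-0.34), and Bin1 4.57, 4.66 and 4.21 against 3.67, 3.16 and 3.55 (-0.37), both with a limma adjusted p of 0.00610 and calls that held without each pool.

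Interferon-stimulated genes gave 1 call of 26, near the 3.23% of all genes. It was Oasl2 (log2 change 0.42, limma adjusted p 0.0271), which was lost without any of 4 pools. The list's median was 0.16 at 72 weeks and -0.11 at 12 weeks. Ifi27l2a averaged 0.566, 0.613 and 0.594 in control and 0.657, 0.676 and 1.03 in antibiotic pools at 72 weeks (0.36, adjusted p 0.104), with antibiotic 6 apart. Iron handling gave 2 calls lower of 11, Tfrc, the transferrin receptor (-0.47, adjusted p 0.0169), and Ncoa4, which guides ferritin to degradation (-0.33, adjusted p 0.0437). Tfrc lost its call without any of 4 pools and Ncoa4 without any of 5. Hmox1, which breaks down heme, stood at -0.34 and did not pass (adjusted p 0.0844).

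No member was called (0) by limma among 17 cytokines and chemokines (median -0.08), 15 NF-kB genes (-0.12), 15 genes of cholesterol synthesis and efflux (0.01), 13 of complement and Fc receptors (-0.05), 15 of MHC class I and II (0.01) or 26 lysosomal genes (0.00). Nor was any among 34 genes of oxidative phosphorylation (0.00), 11 of proliferation (0.18) or 44 ribosomal proteins (0.04), of which 39 lay above 0. Il1a, the cytokine interleukin 1 alpha, averaged 3.67, 5.37 and 4.2 in control and 3.27, 3.52 and 2.78 in antibiotic pools. Its arms did not overlap, and its change of -0.45 missed the threshold (limma adjusted p 0.0604). Tap1, a peptide transporter of antigen presentation, stood at 0.28 (adjusted p 0.0612). Nfkbiz, a nuclear regulator of NF-kB, averaged 5.71, 6.79 and 5.40 in control and 5.13, 5.25 and 4.62 in antibiotic pools (-0.25, adjusted p 0.191). Stmn1, a gene of dividing cells, was high in antibiotic 6 alone, at 0.792 against 0.182 to 0.313. Fcer1g, Ctsc and Hexa had arms that did not overlap and changes of -0.12, -0.19 and -0.15 that did not pass (adjusted p 0.339, 0.0716 and 0.124).

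Several of the largest changes fell outside these lists. Cirbp averaged 1.03, 0.923 and 1.04 in control and 1.81, 2.05 and 1.76 in antibiotic pools (log2 change 0.88, SE 0.0803), and its limma adjusted p of 1.61e-05 was the smallest of all genes. Zc3h6, a zinc-finger protein, averaged 0.140, 0.0919 and 0.0997 in control and 0.260, 0.337 and 0.328 in antibiotic pools (1.16, adjusted p 4.19e-05). Uvssa, a factor of transcription-coupled DNA repair, averaged 0.300, 0.280 and 0.252 in control and 0.490, 0.538 and 0.455 in antibiotic pools (0.73, adjusted p 4.51e-05). In these 3 genes the highest control pool lay well below the lowest antibiotic pool.

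Pik3ip1, an inhibitor of the kinase PI3K, averaged 0.0851, 0.0873 and 0.0831 in control and 0.151, 0.305 and 0.238 in antibiotic pools (log2 change 1.02, limma adjusted p 0.00175), and was the 1 called gene of 18 tested on the FoxO and PI3K list (median 0.06). Irs2, an adaptor of the insulin receptor (0.32, adjusted p 0.0617), and Foxo3, a FoxO factor (0.25, adjusted p 0.0684), did not pass. Jdp2, a repressor of the AP-1 family, rose by 0.81 (adjusted p 0.00904), Ccdc122 by 0.71 (0.00387) and the transcript E230001N04Rik by 0.83 (0.0158). Banp, a nuclear matrix protein, averaged 0.178, 0.225 and 0.214 in control and 0.0889, 0.0749 and 0.0653 in antibiotic pools (-1.02, adjusted p 0.000104). Dynll1, a light chain of dynein, averaged 1.04, 1.09 and 1.02 in control and 0.775, 0.679 and 0.665 in antibiotic pools (-0.54, adjusted p 0.000274). Fchsd2, a regulator of actin at membranes, fell by 0.65 (adjusted p 0.000515) and Lst1, a leukocyte protein, by 0.58 (0.00485). Apart from E230001N04Rik, the calls of the genes in this and the preceding paragraph held without each pool in turn.

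RNA of other cells was measured in the same microglia. The 7 neutrophil markers of Ly6C+Ly6G+ cells summed to 0.638 to 0.736 per cell in control and 1.11 to 3.02 in antibiotic pools, without overlap and with 0 of the 7 at 0 in all pools. Erythroid markers (5 genes) summed to 4.02 to 23.2 in control and 1.10 to 26.3 in antibiotic pools, and neural and endothelial markers (7 genes) to 6.30 to 8.53 and 3.56 to 13.1. The part of such RNA in the changes above was not tested.

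The same contrast at 12 weeks used other animals and other pools. Of the 283 genes called at 72 weeks, 253 (89.4%) had the same direction at 12 weeks, against 5571 of 8759 genes (63.6%) over all genes tested. The median size of the change of these 283 genes was 0.39 at 72 weeks and 0.15 at 12 weeks, where they had not been selected. A total of 12 genes was called at 12 weeks and 6 at both ages, each with the same direction. They were Zc3h6 (0.71 at 12 weeks), Slco4a1 (0.64), Ppp1r21 (0.49), Rbm26 (0.32), Banp (-0.61) and Slc16a6 (-0.39), of which Slco4a1, an organic anion transporter, Rbm26, an RNA-binding protein, Slc16a6, a monocarboxylate transporter, and Ppp1r21, an endosomal protein, were chosen after their values were seen.

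Fkbp5 had a change of 1.01 at 12 weeks (unadjusted p 0.00026) beside 0.91 at 72 weeks, while Klf9 (-0.17), Mt2 (-0.17) and Dusp1 (0.03) were near 0 at 12 weeks. The 8 ER genes called at 72 weeks had values at 12 weeks from -0.46 (Creld2) to -0.01 (Hyou1). For the difference between the ages limma called 0 of 8759 genes (0.0%), while 579 had an unadjusted p under 0.05, and other settings of the same test called 0 to 4. The 4 genes of smallest p for that difference were Ifi27l2a (0.36 at 72 weeks and -0.63 at 12 weeks), Klf9, Spp1 (1.72 and -0.86) and Cirbp (0.88 and 0.33), with limma adjusted p from 0.141 to 0.184. The ages were run in separate wells, so age and well cannot be told apart.

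In BAM, 11 of 8942 genes (0.123%) were called, 3 higher and 8 lower, and 666 had an unadjusted p under 0.05. BAM numbered 37, 40 and 62 cells in the control pools and 33, 44 and 50 in the antibiotic pools. The raised genes were 3 of the 20 tested glucocorticoid targets. Of these 20, 13 lay above 0 and 7 below, from -1.70 to 2.10. Their median was 0.14 against -0.09 for all genes tested in BAM. Ddit4 averaged 0.0811, 0.0750 and 0.113 in control and 0.394, 0.750 and 0.540 in antibiotic pools (log2 change 2.10, limma adjusted p 0.0238). Klf9 averaged 0.243, 0.150 and 0.194 in control and 0.697, 1.07 and 0.460 in antibiotic pools (1.63, adjusted p 0.0293). Mt2 averaged 0.0811, 0.125 and 0.0323 in control and 0.576, 0.295 and 0.600 in antibiotic pools (2.07, adjusted p 0.0296). The lowest antibiotic pool lay above the highest control pool in each. Ddit4 and Mt2 lost the call without any of the 6 pools and Klf9 without any of 5. Mt2 also rested on single cells, of 13, 7 and 12 in the antibiotic pools against 1, 2 and 1 in control. Without the highest cell of each pool the change of Mt2 was 1.47 with a limma adjusted p of 0.491, while Ddit4 (2.12, adjusted p 0.0379) and Klf9 (1.77, adjusted p 0.0431) still passed.

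The lowered genes of BAM included Ch25h, the enzyme that makes 25-hydroxycholesterol, with 0.514, 0.25 and 0.371 in control and 0.0606, 0 and 0.08 in antibiotic pools (log2 change -2.21, limma adjusted p 0.0296). Single control cells held 13, 4 and 16 of Ch25h, and without the highest cell of each pool the control means were 0.167, 0.154 and 0.115, the change -1.43 and the limma adjusted p 0.392. Basp1, a membrane-bound protein, averaged 4.05, 3.77 and 3.39 in control and 1.67, 1.00 and 1.5 in antibiotic pools (-1.42, adjusted p 0.0192). Hspa5 averaged 8.41, 7.20 and 7.47 in control and 3.76, 3.89 and 4.42 in antibiotic pools (-0.93, adjusted p 0.0192). Arms did not overlap in any of the 3. The rest, chosen after their values were seen like Hspa5, were Olfml3 (-1.34), Dynll1 (-1.13), Cx3cr1 (-1.08) and the oxysterol receptor Gpr183 (-1.04), with Gpr34 (-1.37) named by rule.

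Gpr34, Olfml3 and Cx3cr1 are microglial genes, and the other genes of their list lay lower in BAM as well. That list and the marker list share members. Of the homeostatic genes 17 of 17 lay below 0, with a median of -0.85 against -0.09 for all genes tested in BAM, and 3 were called. The 7 microglial markers summed to 28.2, 17.4 and 20.6 per cell in control and 8.55, 8.48 and 13.3 in antibiotic pools. For each of the 7 the antibiotic pools were below the control pools. Over all genes tested in BAM, the arms did not overlap in 14.5%, in either direction. The 7 BAM markers summed to 21.9, 26.0 and 25.3 in control and 25.3, 23.3 and 24.2 in antibiotic pools, with overlap. None of the markers of either list was at 0 in all pools (0 of 14 in BAM). Mrc1, the mannose receptor of BAM, averaged 4.97, 5.53 and 5.90 in control and 5.97, 5.70 and 5.66 in antibiotic pools. Microglia within the authors' BAM, microglial RNA in their droplets and lower expression by BAM cannot be told apart by these sums. Their part in the lowered calls of BAM, Gpr34, Olfml3 and Cx3cr1 among them, was not tested. Without the highest cell of each pool, Basp1 averaged 7.28, 7.93 and 7.03 in control microglia and 3.83, 3.49 and 3.25 in control BAM. Hspa5 averaged 9.10 in control microglia and 7.69 in control BAM. Neural and endothelial markers reached 72.9 in BAM of antibiotic 4 against 2.43 to 3.05 in the other pools, and erythroid markers 14.3 in antibiotic 5 against 0.838 to 0.984.

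**Figure D4:**
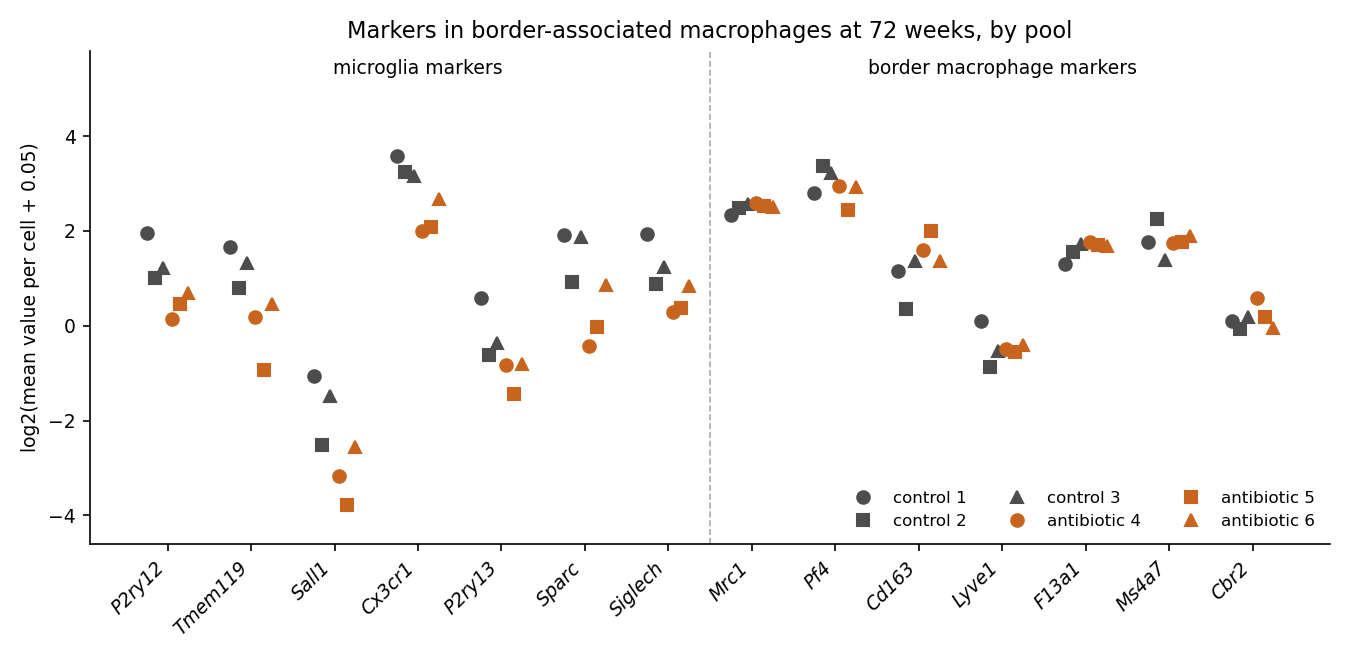
Mean value per cell (log2 after adding 0.05, y axis) of 7 microglia markers and 7 border macrophage markers in the BAM of each pool at 72 weeks. For each microglia marker the 3 antibiotic pools lie below the 3 control pools, while the BAM markers mix, Cd163 excepted, whose antibiotic pools lie above.

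Calls in BAM depended on the fit. The count was 0 without control 1, control 3 or antibiotic 5, and 0 without a trend in the prior variance. It was 23 when only the 6 pools at 72 weeks were fitted, with the 11 among them. Hspa5, Basp1, Gpr34 and Olfml3 each lost the call without any of 4 pools. When single pools were left out, Cx3cr1, Gpr183 and Ch25h kept the call only without antibiotic 6, and Dynll1 only without antibiotic 4.

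In CD8+ cells limma called 1 of 8287 genes (0.0121%), Cirbp, with 85 genes at an unadjusted p under 0.05. Cirbp averaged 0.946, 0.946 and 1.10 in control and 1.94, 2.43 and 2.14 in antibiotic pools (log2 change 1.08, SE 0.157, adjusted p 0.0448). Each antibiotic pool was well above each control pool, and the call was nevertheless lost without any pool other than control 3, with adjusted p up to 0.668, and without the highest cell of each pool (0.0915). In that fit 1 of the 12-week pools was left out for too few cells, as in Ly6CHigh. With at least 20 cells per pool the count was 10, and with array weights it was 17. Neural and endothelial markers summed to 27.6 and 20.9 in control 1 and 2 against 2.48 to 3.01 in the other pools, and B cell markers to 0.518 to 14.4, and their part in these values was not tested.

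Hsph1, Dnaja1, Dynll1 and Rbm3 were chosen in CD8+ cells after their values were seen, and none passed the threshold. Hsph1 and Dnaja1 are heat shock chaperones. Of 20 tested members of that list, 15 lay below 0 and 5 above, up to 0.95 (median -0.38). Hsph1 averaged 0.625, 0.720 and 0.587 in control and 0.148, 0.0727 and 0.150 in antibiotic pools (log2 change -2.03, limma adjusted p 0.0651). Dnaja1 averaged 3.75, 3.97 and 3.16 in control and 1.75, 1.81 and 2.26 in antibiotic pools (-0.89, adjusted p 0.0834). Dynll1 averaged 2.07, 1.89 and 1.94 in control and 0.902, 0.818 and 1.14 in antibiotic pools (-1.02, adjusted p 0.0834). Arms were apart in these 3 and in Rbm3, a cold-shock RNA-binding protein related to Cirbp, with 5.23, 4.75 and 4.93 against 8.03, 8.22 and 7.04 (0.64, adjusted p 0.114).

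No gene was called (0) by limma in Ly6CLow cells (0.0% of 8613), Ly6CHigh cells (0.0% of 8190) or B cells (0.0% of 8383), where 535, 182 and 230 genes had an unadjusted p below 0.05. The genes of smallest p are named as not passing, in cell types that held markers of neutrophils and other cells in single pools, as given above. In Ly6CLow cells Ccl2, a chemokine that draws monocytes, averaged 0.629, 0.986 and 0.884 in control and 2.56, 1.62 and 2.40 in antibiotic pools (log2 change 1.34, adjusted p 0.205). Rgs1, a brake on chemokine receptors, averaged 2.80, 2.69 and 3.93 in control and 5.08, 6.51 and 7.08 in antibiotic pools (0.98, adjusted p 0.643). The arms did not overlap in either gene, nor in 11.2% of all genes tested in Ly6CLow cells. In Ly6CHigh cells these were Iws1 (-1.64) and Wsb2 (1.70), both with an adjusted p of 0.999, and in B cells Bcl7a (-1.87) and Runx2 (1.99), both at 1.0. Too few cells in at least 1 pool left CD4+ cells, ILCs, Ly6C+Ly6G+ cells and NKCells untested.

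The 6 microglia genes of smallest p were then followed through the other tested types. The counts over 6 types below include microglia, where the genes were selected, so that type's place in them was fixed by the choice. All types come from the same 6 pools, so they are not independent of each other. Over all genes tested, the arms did not overlap in 22.1% in microglia, 14.5% in BAM and 12.8% in CD8+ cells. The share was 11.2% in Ly6CLow, 7.78% in B and 5.54% in Ly6CHigh cells. Zc3h6 had a change above 0 in 6 of 6 types, from 0.97 to 1.65, and its antibiotic pools lay above its control pools in 6 of 6. In Ly6CLow cells it averaged 0, 0.0556 and 0.0349 in control and 0.125, 0.362 and 0.140 in antibiotic pools. In Ly6CHigh cells it was near the floor, at 0, 0 and 0.0333 in control and 0.0833, 0.0789 and 0.0404 in antibiotic pools. In BAM control 3 (0.145) and antibiotic 4 (0.152) nearly touched. Zc3h6 and Banp each passed the threshold in microglia alone. Banp had a change below 0 in 6 of 6 types, from -1.22 to -1.02, without overlap in any. In CD8+ cells it averaged 0.321, 0.172 and 0.306 in control and 0.0574, 0.136 and 0.117 in antibiotic pools.

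Cirbp was above 0 in 6 types and Dynll1 below 0 in 6 types, both with overlap in Ly6CHigh cells alone. In B cells Dynll1 averaged 2.27, 2.03 and 2.62 in control and 0.917, 0.941 and 1.86 in antibiotic pools. Uvssa stood apart from these, with a change of -0.43 in Ly6CHigh cells and overlap in 3 types, and P4ha1 overlapped in 4 of 6 types. Among genes chosen after their values were seen, Rbm3 was above 0 in 6 types (0.30 to 0.66), Dnaja1 below 0 in 6 (-0.89 to -0.22) and Hsph1 below 0 in 6 (-2.03 to -0.67).

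The glucocorticoid targets named next were chosen after their values were seen, and their values across types varied more. Klf9 had changes of 0.92 in microglia, 1.63 in BAM, 1.15 in Ly6CLow and 0.92 in Ly6CHigh cells, without overlap, and of 0.23 in CD8+ and 0.26 in B cells, with overlap. Ddit4 had 1.46 in microglia, 2.10 in BAM and 1.10 in Ly6CLow cells, against -0.06 in CD8+ cells. Fkbp5 had 1.00 in BAM and 0.92 in Ly6CLow cells without overlap, and overlapped in CD8+ (0.26), B (1.19) and Ly6CHigh cells (0.67). Over the whole list, 15 of 16 tested members lay above 0 in CD8+ cells (median 0.27). In B cells 7 of 18 did and 11 lay below (median -0.21), and the 1.19 of Fkbp5 was the list's highest change. Members above 0 were 15 of 19 in Ly6CLow cells, 13 of 17 in Ly6CHigh cells and 13 of 20 in BAM. Differences of these changes between types were not tested.

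**Figure D5:**
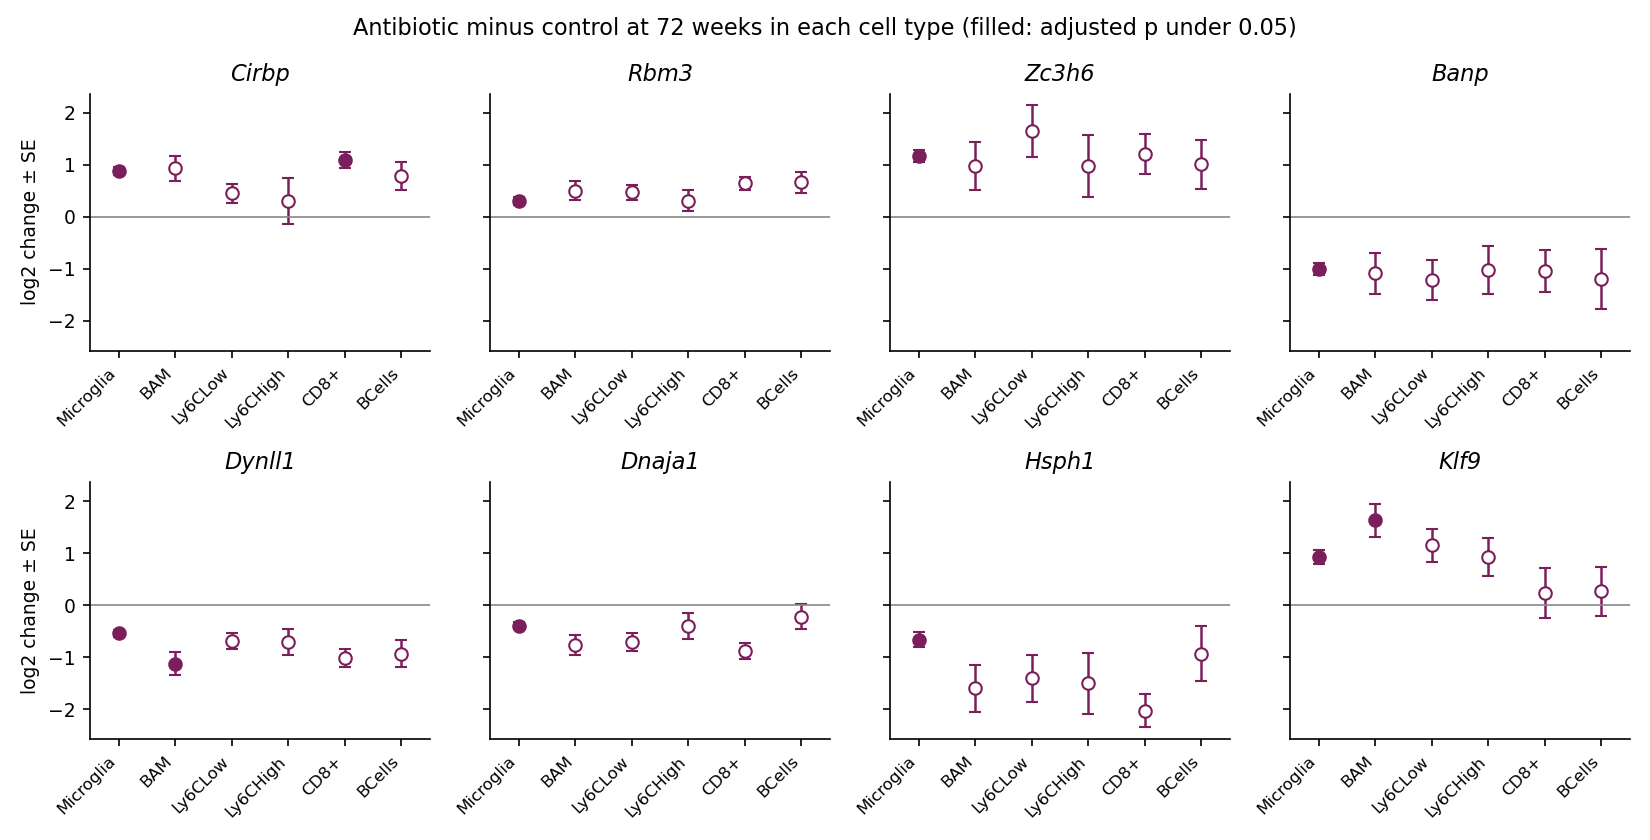
Log2 change (antibiotic minus control, ± SE of limma) at 72 weeks of 8 genes in 6 cell types. Filled points passed an adjusted p of 0.05 in that type. Zc3h6 lies above 0 and Banp near -1 in each type, while Klf9 is near 0.2 in CD8+ and B cells.

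Surface proteins did not differ by the test. edgeR called 0 of 34 antibodies (0.0%) in each of the 6 tested types, with 4 at an unadjusted p under 0.05 in microglia, 1 in BAM, 1 in B cells, 3 in CD8+, 4 in Ly6CHigh and 2 in Ly6CLow cells. DESeq2 called 1 in Ly6CLow and 1 in B cells. In microglia the 3 of smallest p were CD24, CD38 and CD117. CD24, a glycoprotein of many immune and neural cells, gave 89.5, 71.2 and 54.9 tags per 1000 in control and 55.6, 53.6 and 50.8 in antibiotic pools, with overlap at control 3 (log2 change -0.44, edgeR adjusted p 0.309). CD38, an NAD-degrading enzyme, gave 7.14, 7.08 and 7.06 in control and 8.07, 7.39 and 8.0 in antibiotic pools (0.14, adjusted p 0.309). CD117 (c-kit), a receptor of progenitors and mast cells, rested on antibiotic 6, with 30.7 tags per 1000 against 1.74 to 2.97 in the other pools.

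In Ly6CLow cells F4-80, a macrophage protein, gave 2.35, 2.20 and 1.72 tags per 1000 in control and 3.24, 3.64 and 3.29 in antibiotic pools. The arms did not overlap (log2 change 0.84, SE 0.249, edgeR adjusted p 0.175), and DESeq2 called it with 0.67 and an adjusted p of 0.0313. In CD8+ cells CD11b, an integrin of myeloid and of activated cells, gave 29.2, 12.6 and 32.6 in control and 36.8, 47.1 and 58.0 in antibiotic pools (0.94, edgeR adjusted p 0.368). In B cells CX3CR1, a receptor of myeloid cells, gave 269.7 in antibiotic 4 against 7.25 to 10.3 in the other pools, so its call by DESeq2 rested on 1 pool (log2 change -0.41 without it in edgeR). CD4 in Ly6CHigh cells rested on control 2 (28.3 against 1.86 to 5.22), and CXCR4 in BAM, an antibody that the labels do not list, on 0 to 12 tags per pool.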

How the data were processed

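The deposited RNA values are SCTransform-corrected UMIs, treated as a score, for 19848 genes in each cell. Its sum per cell equalled the deposited SCT total in 13052 of 13052 cells and the raw UMI total in 62, so no count model was used on it. The deposited antibody tags (34 antibodies) and cells per type were treated as counts. Cell Ranger 3.0.2, Seurat 3.0.1 and mm10 are named in the submitters' processing notes. Cell types, hashtag calls and singlet status are the authors'.

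The pool was the replicate. Pool means of a type were taken as log2(mean + 0.05), genes with a mean of at least 0.05 were kept, and limma 3.58.1 (R 4.3.3, trended prior variance) was fitted to all 12 pools of both ages, with Benjamini-Hochberg adjustment over all genes and a threshold of 0.05. Types with at least 10 cells in each pool at 72 weeks were tested. In CD8+ and Ly6CHigh cells 1 pool at 12 weeks was dropped. Antibodies and shares were tested with edgeR 4.0.16 (quasi-likelihood, TMM factors for antibodies, pool totals for shares), with DESeq2 1.42.0 beside it. Exact permutation of 3 pools against 3 has 20 arrangements and a smallest two-sided p of 0.1.

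In microglia, named genes were up to 12 raised and 12 lowered with the largest change among called genes without overlap, and in each list the 4 of smallest p. For the difference between ages the 4 genes of smallest p were taken. Other types had up to 3 a side, or the 2 of smallest p where none passed. Named antibodies were the 3 of smallest p in microglia and 1 in each other type. Levels across types are those of the 6 microglia genes of smallest p. Members, lists and tests were chosen with earlier results of these data known. A total of 35 metadata columns was not used, and 1 gene of the marker and gene lists is not reported here. Alternatives were other samples in the fit, pseudocounts, filters, weights, scalings and subsets of cells, and each pool at 72 weeks left out. The steps were tested on simulated data. Promoter and tag sequences come from RefSeq (GRCm38.p6) and the deposited tag list.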

Additional observations from a re-analysis of the deposited data

How the results depend on the processing

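The microglia count of 283 genes became 439 when log values were averaged over cells, 459 with cells of at least 2000 raw UMIs and 105 with no filter on low values. It was 109 to 233 with 1 pool left out, lowest without antibiotic 5 (109) and control 2 (117). All called genes that were tested kept their direction under every alternative run. The arms did not overlap in any called gene, so leaving out a pool could not reverse a direction. The absence of reversals, here and for the named genes below, is therefore no measure of how firm a call is. The difference between ages gave 0 genes, then 2 with array weights, 4 with the mean of logs, 1 without the highest cell per pool, 1 with cells of at least 2000 UMIs and 0 to 4 with 1 pool left out. In BAM 11 genes became 23 with the 6 pools at 72 weeks only, 7 with matched UMIs, 7 with the mean of logs, 7 with a pseudocount of 0.5, 4 with no filter, 0 with no trend and 0 to 10 with 1 pool left out. In CD8+ cells 1 gene became 10 with the 6 pools only, 17 with array weights, 10 with at least 20 cells, 3 with the mean of logs, 2 with a pseudocount of 0.5 and 2 without shared barcodes. It became 0 with matched UMIs, with no filter, with no trend, without the highest cell and with scaled pools, and was 0 to 6 with 1 pool left out. Ly6CHigh cells gave 0 to 1 genes and 0 to 1 antibodies with 1 pool left out. DESeq2 called 1 antibody in B cells and 1 in Ly6CLow cells. Of 71 called single genes named, 0 reversed, 26 kept the call under each alternative, and 40 lost it with no filter. Leaving out shared barcodes or the highest cell was chosen after seeing the data. No paired analysis was possible because control pools carry hashtags 1 to 3 and antibiotic pools 4 to 6, so the arms share no number. The causes of these shifts were not tested. Precision is limited by 3 pools a side and, in Ly6CHigh cells and BAM, by pools of 24 to 99 cells.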
